A study of Mus musculus with 7 samples.

Results

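The carbonic anhydrases are described here through 8 genes, Car2, Car4, Car8, Car9, Car11, Car12, Car13 and Car14, chosen by symbol. All 8 had a probe set annotated to exactly 1 symbol, and each was among the 19938 genes tested. The tissue was the pigmented epithelium of the retina (RPE), a cell layer between the photoreceptors and the choroid, taken from C57Bl/6J mice and collected by agitating opened eyecups until it came loose. RNA from 4 wild-type samples and 3 samples of the Mfrp rd6 genotype was hybridised to 1 array each. Mfrp encodes a membrane protein made by the RPE, and rd6 is a recessive allele known to cause retinal degeneration. The age field of the labels gives 8 weeks for wild type and 12 weeks for Mfrp rd6, in which case age and genotype cannot be told apart, whereas the growth protocol gives 12 weeks for Mfrp rd6 replicate 1 alone and 8 weeks for the rest. The number of animals behind a sample is not stated, so a p-value reflects how far these samples vary among themselves, and that variation may be technical.

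Carbonic anhydrases are zinc enzymes that interconvert carbon dioxide and water with bicarbonate and a proton. The RPE moves carbon dioxide, bicarbonate, lactate and water from the retina to the choroid, and carbonic anhydrase inhibitors are known to speed the removal of subretinal fluid. Isozymes differ in where they act. Car2 and Car13 are cytosolic, Car4 is held at the outer cell surface by a lipid anchor, and Car9, Car12 and Car14 cross the membrane with their catalytic domain outside. Car8 and Car11 belong to the carbonic anhydrase-related proteins, which have lost the catalytic activity.

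The start-site regions of the 3 transmembrane isozymes are shown because the Car9 probe set read far lower than those of Car12 and Car14. Yet Car9 and Car12 are both known to be induced by hypoxia. Each run is the 250 bases before an annotated start on the gene's strand, from RefSeq (GRCm38.p6), and capitals mark the hypoxia response element core (ACGTG or GCGTG) or the core bound by OTX2 and CRX (TAATCC), on either strand.
Car9, chr4:43506776-43507025, + strand: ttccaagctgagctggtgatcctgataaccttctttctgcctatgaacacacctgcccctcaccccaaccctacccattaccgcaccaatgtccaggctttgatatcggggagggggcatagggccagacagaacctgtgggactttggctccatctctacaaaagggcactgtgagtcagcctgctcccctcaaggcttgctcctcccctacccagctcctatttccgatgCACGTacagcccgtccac
Car12, chr9:66713436-66713685, + strand: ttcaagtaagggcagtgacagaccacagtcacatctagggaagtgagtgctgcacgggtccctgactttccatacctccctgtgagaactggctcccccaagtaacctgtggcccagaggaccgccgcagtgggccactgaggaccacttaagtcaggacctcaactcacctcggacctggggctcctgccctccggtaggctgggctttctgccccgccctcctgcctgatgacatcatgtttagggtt
Car14, chr3:95904686-95904935, - strand: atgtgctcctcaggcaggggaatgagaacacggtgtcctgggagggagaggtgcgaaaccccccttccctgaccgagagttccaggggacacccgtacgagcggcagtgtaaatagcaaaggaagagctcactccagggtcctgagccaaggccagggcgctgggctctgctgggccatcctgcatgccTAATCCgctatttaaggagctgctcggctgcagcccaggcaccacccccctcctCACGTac
The Car9 window held 1 match to ACGTG, on the opposite strand, with its first base 18 bases before the start. The Car14 window held 1 match to ACGTG, 7 bases before the start, and 1 match to TAATCC, 61 bases before it. The Car12 window held 0 matches to these motifs, and 0 to the E-box CACGTG, which contains ACGTG, or the M-box core CATGTG, to which MITF can bind. Among 32851 RefSeq windows of the same length, 16.6% held ACGTG, 28.2% GCGTG, 6.25% TAATCC, 12.3% CATGTG and 6.02% CACGTG. A match is a string of letters in this window and no evidence of binding. Among the other members, the windows of Car4 and of the downstream start of Car11 held none of the motifs and that of the upstream start of Car11 held 1 GCGTG. The table held no window for Car2, Car8 or Car13.

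Car12, Car14 and Car13 had the strong signals of the 8 genes, Car11 was intermediate, and Car2, Car8, Car9 and Car4 were dim. Values are log2 signals after RMA, which corrects the background, equalises the arrays and summarises the probes of a set, and each probe set binds with its own affinity, so the order of the signals need not be the order of transcript numbers. Averaged over the 7 arrays, the Car12 signal of 12.03 lay at percentile 99.2 of all genes tested, that of Car14 (11.92) at percentile 99.0, that of Car13 (10.76) at 95.4 and that of Car11 (8.59) at 72.2. Car2 stood at 6.64 (percentile 43.1), Car8 at 6.33 (38.2), Car9 at 5.77 (29.1) and Car4 at 5.40 (23.6). For scale, 1027 olfactory receptor genes, most of which have no known role in the eye, had a median of 3.83, with 5% of them below 2.78 and 5% above 5.61. Car4 lay below this upper limit and Car9 just above it, so a change of either could be compressed by the background. No detection calls were used here.

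**Figure D1:**
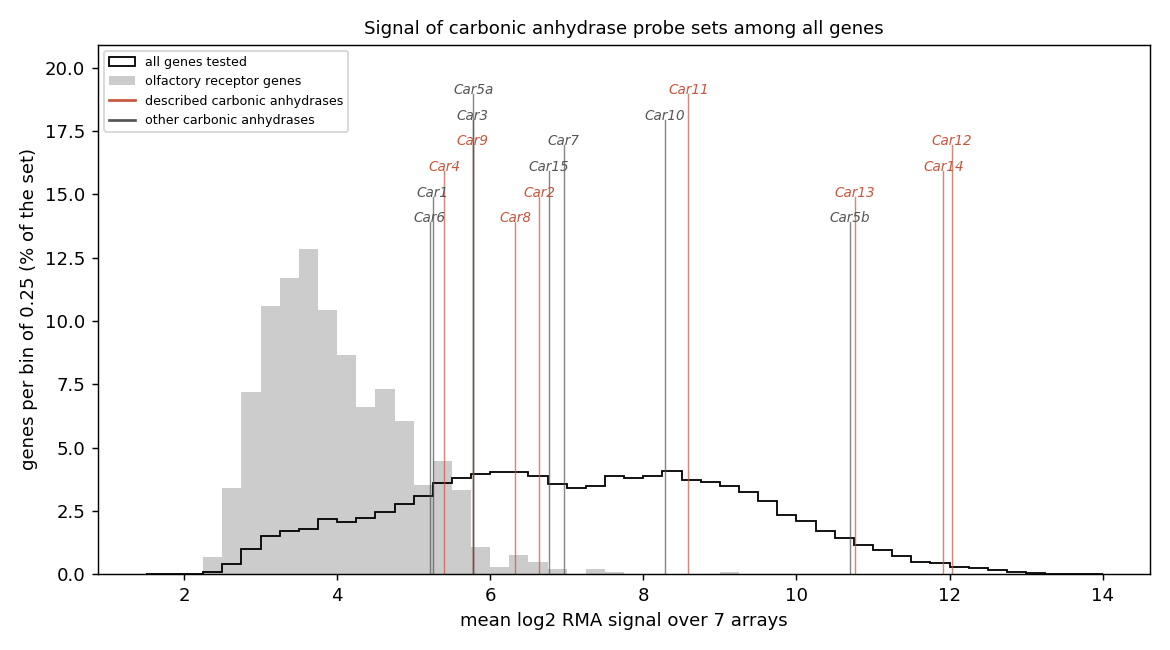
Mean log2 RMA signal over 7 arrays (x axis) against the share of genes in bins of 0.25 (y axis), for all 19938 genes tested (outline) and 1027 olfactory receptor genes (grey), with lines at the 8 described (red) and 8 other (dark grey) carbonic anhydrases. Car12, Car14 and Car13 sit at 10.76 to 12.03, and Car4 at 5.40 lies inside the range of the olfactory receptors.

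None of the 8 carbonic anhydrases passed the test between Mfrp rd6 and wild type. At an adjusted p under 0.05 (limma, Benjamini-Hochberg adjustment over all genes), 0 of 8 rose and 0 of 8 fell, where 2.15% of all genes passed, 1.34% higher and 0.813% lower. At an unadjusted p under 0.05 the count was also 0 of 8, where 15.4% of all genes passed. The arrays of the 2 groups overlapped for all 8, while they did not overlap for 15.3% of all genes. The log2 changes ran from -0.18 for Car13 to 0.09 for Car4, with a median of 0.03, against a median of -0.02 over all genes. The median size of a change, sign ignored, was 0.05 for the 8 and 0.09 for all genes. Adjusted p-values lay between 0.412 and 0.933. Exact two-sided permutation tests, which run through the 35 ways to divide the arrays into 3 and 4, gave p between 0.2 and 0.8 (the design allows no p below 0.0286).

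**Figure D2:**
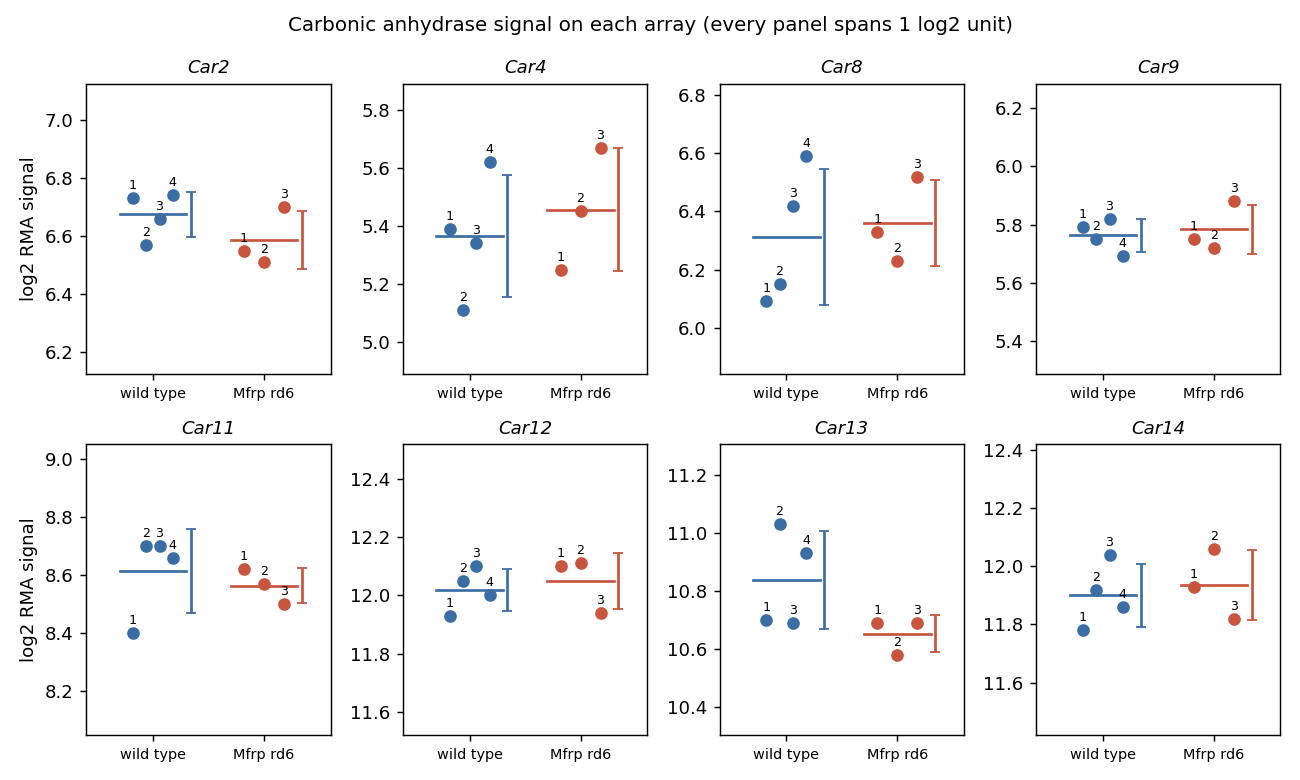
Log2 RMA signal of the 8 carbonic anhydrases (y axis, 1 log2 unit in every panel) on each wild-type (blue, n = 4) and Mfrp rd6 (red, n = 3) array, numbered by replicate, with group means (lines) and SD (bars). The groups overlap in every panel, and in that of Car13 wild-type replicates 2 and 4, at 11.03 and 10.93, lie above the rest.

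Of the transmembrane isozymes, Car12 is an enzyme of ion-transporting epithelia. Its wild-type values were 11.93, 12.05, 12.10 and 12.00 in replicates 1 to 4, and its Mfrp rd6 values were 12.10, 12.11 and 11.94 in replicates 1 to 3. The highest arrays of both groups thus read nearly alike, and the means of 12.02 ± 0.07 (SD, n = 4) and 12.05 ± 0.10 (SD, n = 3) differed by 0.03 (SE 0.08, adjusted p = 0.902). The 95% confidence interval of the Car12 change, -0.14 to 0.20, corresponds to 0.91-fold to 1.15-fold.

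Car14, an isozyme known in the membranes of the mouse RPE and of Müller glia, read 11.78, 11.92, 12.04 and 11.86 in wild type. In Mfrp rd6 it read 11.93, 12.06 and 11.82. The means, 11.90 ± 0.11 (SD, n = 4) and 11.94 ± 0.12 (SD, n = 3), differed by 0.04 (SE 0.09, adjusted p = 0.896), and the interval of -0.16 to 0.23 corresponds to 0.90-fold to 1.17-fold. On the individual arrays Car12 and Car14 shared their extremes, since wild-type replicate 1 and Mfrp rd6 replicate 3 were lowest in their groups for both genes, and wild-type replicate 3 and Mfrp rd6 replicate 2 highest. The same 2 arrays were highest in their groups for the means of skeletal muscle markers (7.91 and 8.83) and of microglia and macrophage markers (7.26 and 9.37), wild-type replicate 3 also for rod markers (8.33) and Mfrp rd6 replicate 2 for lens markers (7.58). The mean of the RPE markers was likewise highest in wild type on replicate 3 (11.39) and lowest in Mfrp rd6 on replicate 3 (11.25). Its other extremes differed, with 11.29 as the wild-type lowest, on replicates 2 and 4. In Mfrp rd6 it was highest on replicate 1 (11.32), against 11.31 on replicate 2. The part of any of these markers in the shared extremes was not tested.

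Car9, the isozyme best known as a marker of hypoxia, read 5.79, 5.75, 5.82 and 5.69 in wild type and 5.75, 5.72 and 5.88 in Mfrp rd6. These 7 values span 0.19 log2 units, and the change of 0.02 (SE 0.07, adjusted p = 0.933) had an interval of -0.14 to 0.18. At this signal the probe set is near the range of the olfactory receptors, and a narrow interval there need not mean a narrow range of transcript numbers.

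Among the cytosolic isozymes, Car13 had the largest difference of the 8 genes. Its wild-type arrays read 10.70, 11.03, 10.69 and 10.93, and its Mfrp rd6 arrays 10.69, 10.58 and 10.69. Wild-type replicates 2 and 4 were high, while wild-type replicates 1 and 3 read nearly the same as Mfrp rd6 replicates 1 and 3. The means were 10.84 ± 0.17 (SD, n = 4) and 10.65 ± 0.06 (SD, n = 3), and the change of -0.18 (SE 0.10) did not pass (adjusted p = 0.412). Its interval of -0.40 to 0.03 runs from a 1.32-fold lower to a 1.02-fold higher level. Without wild-type replicate 2 the Car13 change was -0.12 (adjusted p = 0.603), and without wild-type replicate 3 it was -0.23 (adjusted p = 0.348).

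The genes most like Car13 in pattern, by the mean absolute difference over the 7 arrays after centring each gene on its own mean, were Rasgef1b, a guanine nucleotide exchange factor (0.025), Snx1, a sorting nexin of endosomes (0.028), and Rab9, a GTPase of late endosomes (0.028). Rasgef1b was high in the same wild-type arrays, with 8.58 and 8.42 in wild-type replicates 2 and 4 against 8.22 and 8.24 in replicates 1 and 3. The rule picked them for this likeness, so their pattern is a description.

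Car2, the fast cytosolic isozyme that in the retina is known from Müller glia, read 6.73, 6.57, 6.66 and 6.74 in wild type. In Mfrp rd6 it read 6.55, 6.51 and 6.70, so that replicate 3 lay inside the wild-type range and replicates 1 and 2 just below it. The change was -0.09 (SE 0.08, adjusted p = 0.661), with an interval of -0.26 to 0.08. The gene lies in a cluster on chromosome 3 where, in RefSeq order of the protein-coding genes, Car13, Car1, Car3 and Car2 follow each other. Of the 4, Car13 read 10.76 on average and the other 3 read 5.25 (Car1), 5.77 (Car3) and 6.64 (Car2).

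Car4, the lipid-anchored isozyme known from the choriocapillaris, read 5.39, 5.11, 5.34 and 5.62 in wild type and 5.25, 5.45 and 5.67 in Mfrp rd6. The lowest and the highest value came from different groups, and the spread within a group (SD 0.21 in both) exceeded the change of 0.09 (SE 0.13, adjusted p = 0.813). The interval of the Car4 change, -0.20 to 0.38, was the widest of the 8. Of 10 measured markers of the choroidal endothelium, 2 rose (1.34% of all genes did) and 0 fell in the same arrays, among them Plvap, a protein of fenestrated capillaries (0.57), and their mean per array ran from 6.72 to 7.20 in wild type and from 7.26 to 7.67 in Mfrp rd6. A different number of cells of a type and a different amount of RNA per cell cannot be told apart in such samples.

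Of the related proteins without activity, Car11 read 8.40, 8.70, 8.70 and 8.66 in wild type and 8.62, 8.57 and 8.50 in Mfrp rd6. Wild-type replicate 1 was the lowest of all arrays and the other wild-type arrays were the highest, and the change was -0.05 (SE 0.09, adjusted p = 0.849). Car8, which binds the inositol trisphosphate receptor and is best known from Purkinje cells, read 6.09, 6.15, 6.42 and 6.59 in wild type and 6.33, 6.23 and 6.52 in Mfrp rd6. The Mfrp rd6 arrays of Car8 all fell inside the wild-type range, and the change was 0.05 (SE 0.13, adjusted p = 0.91, interval -0.24 to 0.33).

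The members differed in the spread of their values. The standard errors ran from 0.07 to 0.13, against a median of 0.09 over all genes. Within groups, the SD of Car9 lay at percentile 15.7 of all genes, that of Car12 at 24.8 and that of Car2 at 28.5. The Car9 signal of 5.77 was near the olfactory receptor range, where a small SD need not mean a precise measurement. Car4 and Car8, both dim, lay at percentiles 89.7 and 88.4. For all 8 genes the 95% confidence interval stayed within 0.5 log2 units of 0, a 1.41-fold change, as it did for 90.4% of all genes. These intervals are not adjusted for multiple testing, so a call needed a change further from 0 than they imply. In another family gene, Car6, a change of -0.40 with an interval of -0.64 to -0.16 was not called (adjusted p = 0.104). With this number of arrays, changes inside the intervals, and some beyond them, would have gone uncalled.

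**Figure D3:**
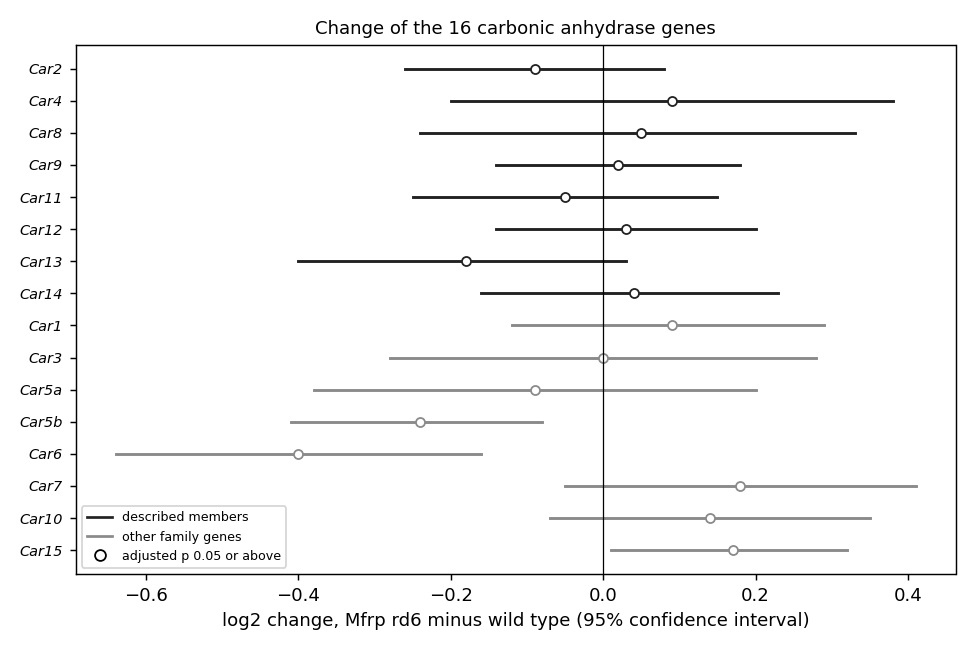
Log2 change, Mfrp rd6 minus wild type (x axis), with 95% confidence interval, for the 8 described carbonic anhydrases (black) and the 8 other family genes (grey). Open points have an adjusted p of 0.05 or above, which holds for all 16; the intervals of Car5b, Car6 and Car15 lie to one side of 0 before adjustment for multiple testing.

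The 8 other family genes also held no call, with 0 higher and 0 lower at the adjusted threshold and 3 of 8 at an unadjusted p under 0.05 (15.4% of all genes). Groups did not overlap for the same 3 genes, Car5b, Car6 and Car15 (15.3% of all genes). Car5b, the mitochondrial isozyme of broad distribution, had a strong signal at percentile 95.1 and read 10.80, 10.91, 10.76 and 10.75 in wild type against 10.60, 10.47 and 10.62 in Mfrp rd6. All 3 Mfrp rd6 arrays of Car5b lay below all wild-type arrays, but the change of -0.24 (SE 0.07) did not pass (adjusted p = 0.151). Car6, the secreted isozyme of saliva, differed by -0.40 (SE 0.11, adjusted p = 0.104) at a dim signal, with a wild-type mean of 5.38 ± 0.18 (SD, n = 4) and a mutant mean of 4.98 ± 0.12 (SD, n = 3). The mean signals of Car6 (5.21) and Car1 (5.25) lay below the 5.61 that 5% of olfactory receptor genes exceeded, so neither was above this background and their differences may be compressed. Car15, a lipid-anchored isozyme, differed by 0.17 (adjusted p = 0.286), also with no overlap of the groups.

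The remaining family genes overlapped between groups. The mitochondrial Car5a differed by -0.09 (adjusted p = 0.815), the neuronal cytosolic Car7 by 0.18 (adjusted p = 0.459), the inactive related protein Car10 by 0.14 (adjusted p = 0.554) and the erythrocyte isozyme Car1 by 0.09 (adjusted p = 0.719). Car3, an isozyme of skeletal muscle and fat, had a wild-type mean of 5.77 ± 0.17 (SD, n = 4) and a mutant mean of 5.77 ± 0.23 (SD, n = 3), a change of 0.00 with an interval of -0.28 to 0.28. Car3 (mean signal 5.77) and Car5a (5.78) lay just above the 5.61 that 5% of olfactory receptor genes exceeded. Differences of either may be compressed. In the same arrays 2 of 11 skeletal muscle markers rose (1.34% of all genes did) and 0 fell, with Pvalb 2.18 higher, and all 11 had a positive change.

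The genes that move the products of the reaction were compared in the same fit. Of 14 measured bicarbonate transporters, 0 rose and 0 fell (3 at an unadjusted p under 0.05, where 15.4% of all genes passed), with changes from -0.55 to 0.29 and a median of 0.02. The lowest values were those of Slc26a4, the anion exchanger pendrin (-0.55, SE 0.25, adjusted p = 0.327), and Slc4a4, an electrogenic sodium bicarbonate cotransporter (-0.37, SE 0.13, adjusted p = 0.209), both named after their values were seen; the arrays of Slc4a4 did not overlap. Slc4a5, a sodium bicarbonate cotransporter and the brightest of the list, had a wild-type mean of 12.24 ± 0.06 (SD, n = 4) and a mutant mean of 12.18 ± 0.03 (SD, n = 3) (-0.06, adjusted p = 0.731). Of 9 proton and lactate transport partners, 0 rose and 1 fell (0.813% of all genes did), with changes from -0.54 to 0.46 and a median of 0.01. At an unadjusted p under 0.05 there were 3 of the 9 (15.4% of all genes). Groups did not overlap for 3 of these 9 and for 2 of the 14 bicarbonate transporters (15.3% of all genes). The gene that fell was Slc16a1, the proton-coupled lactate carrier MCT1, which read 11.96, 11.95, 12.05 and 11.86 in wild type and 11.51, 11.56 and 11.17 in Mfrp rd6. Its change was -0.54 (SE 0.10, adjusted p = 0.0266), and without Mfrp rd6 replicate 1, the comparison of equal ages under the growth protocol, it was -0.59 and did not pass (adjusted p = 0.0576). The call was also lost without wild-type replicates 1 (adjusted p = 0.0741), 2 (adjusted p = 0.0637) or 3 (adjusted p = 0.0704). Another lactate carrier, Slc16a7 (MCT2), named after its values were seen, read 6.41 ± 0.06 (SD, n = 4) against 6.88 ± 0.23 (SD, n = 3) and differed the other way, by 0.46 (SE 0.10), without overlap of the groups and without passing (adjusted p = 0.0571).

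Of 12 hypoxia-induced genes other than Car9 and Car12, 0 rose and 0 fell, with changes from -0.19 to 0.22 and a median of -0.06. At an unadjusted p under 0.05 the count was 2 of 12, where 15.4% of all genes passed. The lowest was that of Slc2a1, the glucose transporter GLUT1 and the brightest of this list, which had a wild-type mean of 12.97 ± 0.02 (SD, n = 4) and a mutant mean of 12.78 ± 0.06 (SD, n = 3) (adjusted p = 0.19). The arrays of Slc2a1 did not overlap, which held for 1 of the 12 genes and for 15.3% of all genes.

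**Figure D4:**
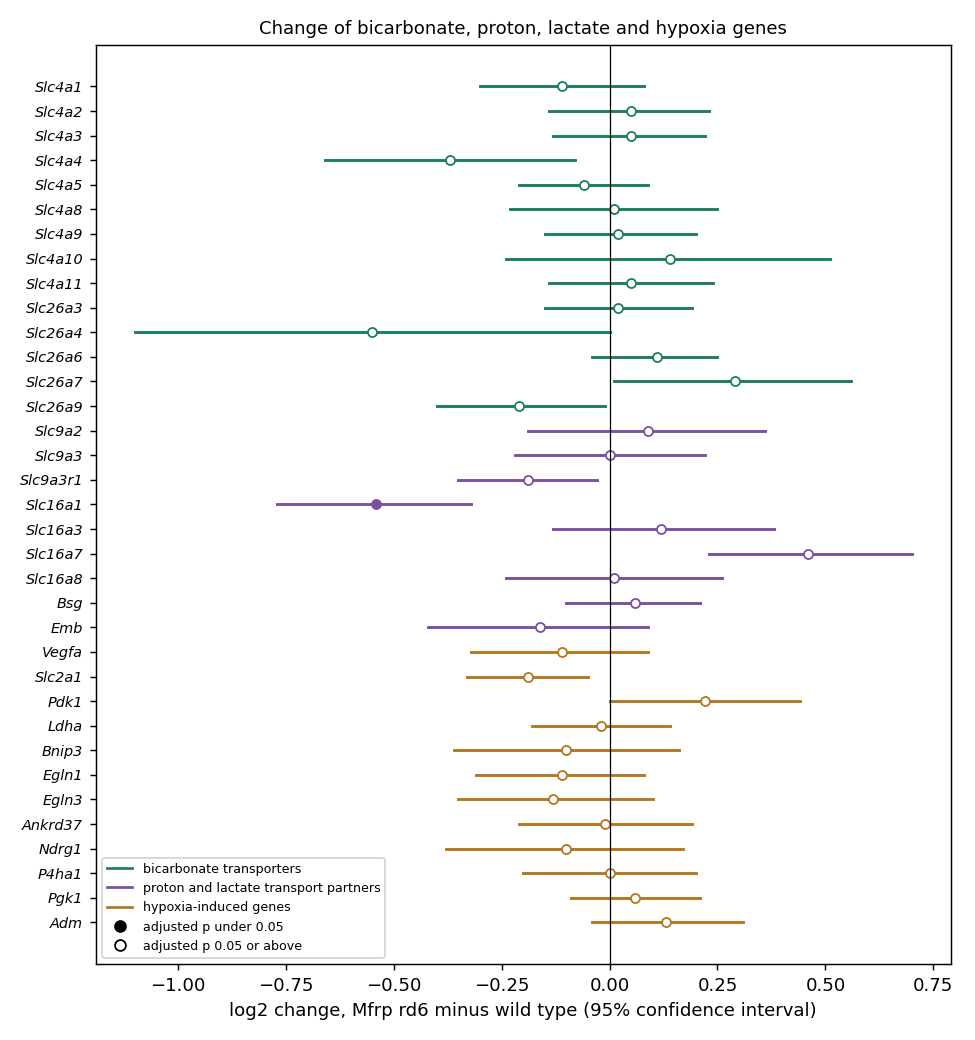
Log2 change, Mfrp rd6 minus wild type (x axis), with 95% confidence interval, for 14 bicarbonate transporters (green), 9 proton and lactate transport partners (purple) and 12 hypoxia-induced genes (brown). The filled point, Slc16a1 at -0.54, is the gene with an adjusted p under 0.05, and open points are at 0.05 or above.

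The arrays were checked against markers of the tissue and of other cells that the eyecup could shed. The 11 RPE markers averaged 11.29 to 11.39 on the wild-type arrays and 11.25 to 11.32 on the Mfrp rd6 arrays. Of the 11, 0 were higher and 1 was lower (0.813% of all genes were), namely Lrat, the retinol esterifying enzyme (-0.40). Best1, an RPE anion channel, read only 5.88 in wild type. Of 14 microglia and macrophage markers 11 rose (1.34% of all genes did) and 0 fell. Their mean per array was 7.14 to 7.26 in wild type and 8.79 to 9.37 in Mfrp rd6. Their part in the Slc16a1 result was not tested. Of 8 Müller glia markers 0 passed the adjusted threshold, and their mean difference was -0.07. At an unadjusted p under 0.05 there were 2 (15.4% of all genes), Lhx2 lower (-0.28) and Dkk3 higher (0.28). Gfap had the largest difference of the 8 (-0.45, adjusted p = 0.439). The lens mean was 7.58 on Mfrp rd6 replicate 2 and at most 5.78 on the other arrays, and the rod mean was 8.33 on wild-type replicate 3 and at most 7.63 on the others. Mean differences were -0.52 for rods, -0.06 for Schwann cells, -0.02 for adipocytes and 0.08 for the 2 measured erythroid markers. These lists held 0 calls. For fibroblasts the difference was -0.29, with 1 marker lower (0.813% of all genes were). The 7 surface epithelium markers differed by -0.19 on average, with 0 calls. Their mean per array, 11.53 to 11.69 in wild type and 11.37 to 11.46 in Mfrp rd6, did not overlap between groups. The surface epithelium markers thus read as high as those of the RPE. The means of microglia, skeletal muscle, choroidal endothelium and fibroblast markers did not overlap either. The skeletal muscle means differed by 1.29, with 6.77 to 7.91 in wild type and 7.93 to 8.83 in Mfrp rd6. Fibroblast means ran from 7.16 to 7.34 in wild type and from 6.81 to 7.04 in Mfrp rd6. The part of such cells in the carbonic anhydrase signals was not tested. Without Mfrp rd6 replicate 2 the changes of the 8 carbonic anhydrases ran from -0.15 to 0.11, and without wild-type replicate 3 from -0.23 to 0.08, with 0 calls in either fit. Without Mfrp rd6 replicate 1, the comparison of equal ages under the growth protocol, they ran from -0.20 to 0.20 with 0 calls and a smallest adjusted p of 0.473.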

How the data were processed

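The authors deposited 1 table of log2 values per probe set and array, made with Affymetrix Expression Console and RMA, per the submitters' processing notes (versions: not given in the sources used here). Differences between dim probe sets are compressed by RMA. Values lay between 1.91 and 13.81, with array medians of 6.52 to 6.58, and correlations between arrays of 0.988 to 0.994. The number of arrays limits the precision.

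Of 35556 probe sets, 21789 had 1 symbol in the platform annotation, 1621 several and 12146 none; the annotation can be old. The probe set with the highest mean stood for a gene, and each carbonic anhydrase had 1. Each gene was fitted with limma 3.58.1 (R 4.3.3, lmFit and eBayes) as Mfrp rd6 minus wild type, with p-values adjusted over 19938 genes and a threshold of 0.05. The fit was tested on simulated data. Python 3.11.15, pandas 2.3.3 and matplotlib 3.10.9 made tables and figures.

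The members, gene lists and tests were chosen with earlier results of these data known, and the olfactory receptors and motifs after the values were seen. Named were the 8 members, the other family genes, and of each pathway list the members past the threshold or else the brightest. The 3 genes nearest in pattern to the member with the largest change were also named, leaving out predicted, clone, small RNA and olfactory names. Marker genes were named from the brightest in wild type and the most changed of their lists. Best1, Lhx2 and Dkk3 were named after their values were seen. A further 12 listed genes were not analysed here. Alternatives were other normalizations, filters, moderation, weights, probe set rules, a replicate block, and leaving out each array.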

Additional observations from a re-analysis of the deposited data

Results flagged for a closer look

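In 2 of the 19 genes examined, 1 of the 4 wild-type arrays stood far from the other 3, where chance flags about 1 in 20 groups. For Car11 it was wild-type replicate 1, at 8.40 against 8.66 to 8.70, and without it the change was -0.12 (adjusted p = 0.42). For Slc4a5 it was wild-type replicate 3, at 12.33 against 12.21 to 12.23.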

How the results depend on the processing

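The count of 0 carbonic anhydrases called held in all 19 alternatives; Car13 was at an unadjusted p under 0.05 in 4 of them, with adjusted p down to 0.198. The count over all genes, 429, was 718 with a variance trend and robust moderation, 679 with array weights, 123 with a minimum change of 0.2, 59 without moderation and 211 to 325 without 1 array. With the replicate block it was 226; same-numbered samples did not deviate together (correlations of -0.303, -0.073 and 0.036), so the numbers do not show pairing. The sign of small changes turned with array weights for Car4 (-0.04), Car8 (-0.11) and Car3 (-0.12), and with arrays centred on their medians for Car3 (-0.01). Without 1 array the changes of -0.09 for Car2, 0.03 for Car12, 0.09 for Car1, 0.18 for Car7 and 0.14 for Car10 ran from -0.15 to -0.05, from 0.00 to 0.08, from 0.02 to 0.18, from 0.10 to 0.23 and from 0.03 to 0.20, and the other small changes from -0.02 to 0.20 for Car4, -0.03 to 0.14 for Car8, -0.03 to 0.05 for Car9, -0.03 to 0.10 for Car14, -0.10 to 0.13 for Car3 and -0.23 to 0.02 for Car5a. Car5b passed with a variance trend and robust moderation together (-0.24, adjusted p = 0.0478), as did Slc2a1 (-0.19, adjusted p = 0.0242), and Car6 with array weights (-0.43, adjusted p = 0.0369). Slc16a1 passed in 12 of 19. Besides the fits without 1 array, it did not pass with the replicate block (-0.57, adjusted p = 0.0773) or without moderation of the variance (adjusted p = 0.154). It also did not pass with a minimum change of 0.2 (adjusted p = 0.255). The cause of these differences was not tested. Filters on dim genes left 4 or 6 of the 8 members in the test.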
